A study of Homo sapiens with 8 samples.

Results

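The genes described here encode the DEAD-box (DDX) and DEAH-box (DHX) RNA helicases, enzymes that use ATP to unwind RNA or to strip proteins from it. They were chosen by name: 51 of the 12186 genes named in the H3K9ac peak lists had a symbol beginning with DDX or DHX and a digit, and 1 further gene of that pattern was left out. Of the 51, 37 were DDX and 14 were DHX genes, and 47 were protein-coding. The other 4 were the antisense RNAs DDX11-AS1 and DDX26B-AS1 and DDX12P and DDX11L2, which are copies of DDX11. They held 81 of 20326 stromal and 38 of 7141 astromal H3K9ac peaks, and 79 of 15093 stromal and 82 of 14489 astromal H3K27ac peaks had their centre within 2 kb of one of those.

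The cells were MIA PaCa-2, an established line from a human pancreatic tumour, grown in 3D as spheroids in a hydrogel of hyaluronan joined by a polyethylene glycol cross-linker. In stromal cultures the gel also held a collagen component (Gelin-S), and the medium, with 2% serum, had been conditioned by immortalized myofibroblasts from resected human pancreatic tumours. In astromal cultures water replaced the collagen component and the medium, also with 2% serum, was not conditioned. Gel component and medium therefore changed together, and their parts cannot be told apart. Each mark in each condition was 1 library, so no difference between conditions has a replicate check and none was tested.

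Acetylation of histone H3 at lysine 9 (H3K9ac) and at lysine 27 (H3K27ac) marks active promoters, and H3K27ac also marks active enhancers. Most RNA helicases of these families serve steps that every growing cell uses: splicing, the assembly of ribosomes in the nucleolus, mRNA export, translation and mRNA decay. A few are sensors or effectors of the response to viral RNA, and their genes are induced by interferon. In ChIP of a whole culture, fewer acetylated alleles and less acetylation per allele cannot be told apart.

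The depth was 7569791 tags in the stromal and 3923202 in the astromal H3K9ac library, both estimated from the values, and 17190695 and 13453902 tags for H3K27ac in the same order of conditions. Peaks held 5.81% of the stromal and 1.76% of the astromal H3K9ac tags. The median H3K9ac peak of a helicase gene rested on 22 tags in the stromal list and 9.5 in the astromal one. Of the epithelial and ductal markers KRT8, KRT18 and KRT19 had H3K9ac peaks, while KRT7, EPCAM and CDH1 were not named in either H3K9ac list. Of 7 myofibroblast markers, ACTA2, COL1A1 and COL1A2 had H3K9ac in the stromal list only, at 17.2 to 111.0 normalised tags, and the other 4 were not named in either list. Of the mesenchymal markers, CDH2 and FN1 were not named and VIM had 92.5 normalised H3K9ac tags in the stromal list only. KRT8 and KRT19 were also in that list alone, as were 52.2% of all genes named. H3K27ac at COL1A2 held 67.5 normalised tags in stromal and 89.2 in astromal cells, and at VIM 20.4 in the stromal list only. ACTA2 and COL1A1 had no H3K27ac in either list. KRT8 had 32.6 in stromal and 19.3 in astromal cells, KRT18 13.4 and 11.9, and KRT19 43.1 and 35.7. No acinar, immune or endothelial marker was named. The part of these depths and markers in the results below was not tested.

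Promoter sequences of 44 of the 51 genes were found in RefSeq tables of build GRCh38.p14, 43 by symbol and DDX26B-AS1 as INTS6L-AS1. None was found for DDX11L2, DDX12P, DDX18, DDX49, DDX52, DHX33 and DHX58. Of the 44 genes with a promoter 2 are non-coding, DDX11-AS1 and DDX26B-AS1. The 5 promoters shown each carry a motif marked in capitals. Each is the 250 bases before the transcription start site (TSS), written 5′ to 3′ on the strand of the gene, with matches in capitals. In the first 3 the capitals mark CCGGAAG, the core bound by ETS transcription factors, or its reverse complement. In the last 2 they mark a form of the interferon response element, GAAA, any 2 bases and GAAA again.
DDX5, chr17:64506639-64506888, minus strand: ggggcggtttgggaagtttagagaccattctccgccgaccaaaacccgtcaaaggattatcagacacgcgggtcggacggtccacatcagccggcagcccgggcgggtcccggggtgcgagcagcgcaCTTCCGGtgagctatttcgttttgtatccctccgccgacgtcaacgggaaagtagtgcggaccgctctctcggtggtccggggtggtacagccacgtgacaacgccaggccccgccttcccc
DHX16, chr6:30673007-30673256, minus strand: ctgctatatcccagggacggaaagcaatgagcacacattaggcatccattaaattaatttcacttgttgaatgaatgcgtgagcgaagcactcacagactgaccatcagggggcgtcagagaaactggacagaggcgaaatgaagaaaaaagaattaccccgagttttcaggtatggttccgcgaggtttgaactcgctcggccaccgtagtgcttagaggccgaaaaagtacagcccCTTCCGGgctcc
DDX21, chr10:68955920-68956169, plus strand: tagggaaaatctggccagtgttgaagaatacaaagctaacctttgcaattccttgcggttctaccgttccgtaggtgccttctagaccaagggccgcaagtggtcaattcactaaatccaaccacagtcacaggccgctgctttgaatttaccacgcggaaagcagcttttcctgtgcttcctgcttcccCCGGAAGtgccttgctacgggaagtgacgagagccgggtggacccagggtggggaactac
DDX60, chr4:168318753-168319002, minus strand: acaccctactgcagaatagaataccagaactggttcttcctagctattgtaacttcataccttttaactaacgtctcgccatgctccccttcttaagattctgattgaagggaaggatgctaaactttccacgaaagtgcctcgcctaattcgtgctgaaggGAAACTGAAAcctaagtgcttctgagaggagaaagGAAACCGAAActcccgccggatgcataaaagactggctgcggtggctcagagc
DDX60L, chr4:168480493-168480742, minus strand: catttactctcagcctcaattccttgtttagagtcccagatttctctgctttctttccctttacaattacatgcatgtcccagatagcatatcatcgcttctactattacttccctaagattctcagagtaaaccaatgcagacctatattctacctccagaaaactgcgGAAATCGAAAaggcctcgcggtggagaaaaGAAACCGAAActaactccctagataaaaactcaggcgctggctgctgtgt

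The ETS core, searched on both strands, was found in 14 of the 44 promoters (31.8%). The genes were DDX1, DDX5, DDX19A, DDX21, DDX31, DDX39B, DDX42, DDX46, DDX50, DDX56, DHX8, DHX16, DHX30 and DHX57. Of 15842 protein-coding promoters of the same length 11.8% held it, and of the 8327 whose gene was named in an H3K9ac list 17.0% did. The interferon response element was found in DDX60, DDX60L and DHX15, 3 of 44 (6.82%), with 2 matches in each of the first pair. Of all promoters 2.72% held it, and of those named in an H3K9ac list 2.14% did. The CCAAT box (CCAAT) stood in 18 of 44 promoters, against 34.5% of all and 35.2% of those in an H3K9ac list. The GC box (GGGCGG) stood in 25 of 44 (56.8%), against 56.0% of all and 69.3% of those in an H3K9ac list. The E-box CACGTG stood in 6 of 44, against 7.84% and 9.36%. The TATA box TATAAA stood in DDX39B alone of the 44, against 9.23% and 4.79%. No 2 of these motifs were required together, and a match is a description of the letters, not of binding.

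H3K9ac was found at the helicase genes mostly in both conditions. In both lists stood 32 of the 51 (62.7%, exact 95% binomial interval 48.1 to 75.9), against 46.8% of all genes named. In the stromal list only stood 19 (37.3%), against 52.2% of all genes, and in the astromal list only none, against 0.935%. Restricted to protein-coding genes with a peak within 1 kb of a TSS, 28 of 46 helicase genes (60.9%) and 48.0% of all 9855 such genes had it in both lists. The DDX genes were in both lists in 26 of 37 cases and the DHX genes in 6 of 14, a difference given without a test.

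The 19 genes of the stromal list alone were not without H3K27ac. Of these, 15 (78.9%) had an H3K27ac peak nearby in both conditions, against 47.7% of all 6366 genes whose H3K9ac was in that list alone. DHX37 had one in the astromal list only, and DDX26B-AS1, DDX51 and DDX60 in neither. Their stromal H3K9ac peaks were somewhat smaller than those of the genes in both lists: the highest peak of a gene had a median of 23 tags (11 to 35), against 29 tags (16 to 57). The highest astromal peaks of the 32 genes in both lists rested on 6 to 23 tags, so absence from the astromal list is not a measured absence of the mark. With only peaks of at least 10 tags, 17 of the 51 genes were left in both lists and 34 in the stromal one alone, against 21% and 75.9% of all genes.

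**Figure D1:**
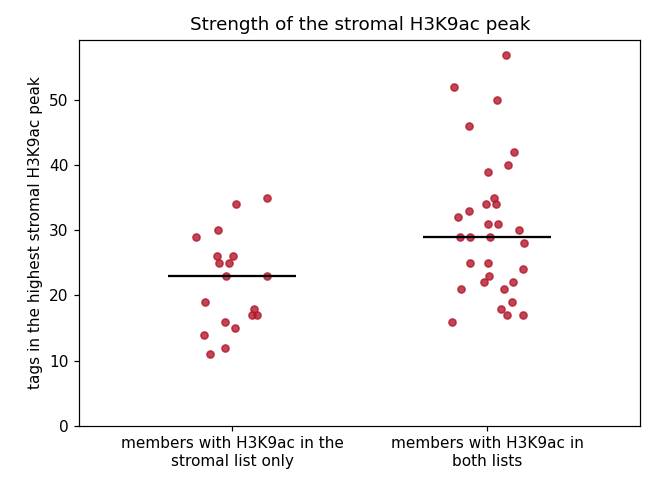
Tags in the highest stromal H3K9ac peak of each gene (y axis), for the 19 genes of the stromal list alone and the 32 of both lists; each point is a gene and the bar the median. The medians are 23 and 29 tags, and the ranges overlap.

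Of the 19, 5 lay beside a peak that carries another gene's name. The promoters of DDX20 and FAM212B, DDX31 and GTF3C4, DDX49 and COPE, DDX59 and LOC101929224, and DHX57 and MORN2 lie within 2 kb of each other, and the astromal list had a peak named for the second gene of each pair. It held 20.4 normalised tags at FAM212B, 38.2 at GTF3C4, 20.4 at COPE, 25.5 at LOC101929224 and 17.8 at MORN2. Peaks of the same neighbours stood in the stromal list too. They held 33.0 normalised tags at FAM212B, 47.6 and 39.6 at GTF3C4, 41.0 at COPE, 35.7 at LOC101929224 and 23.8 at MORN2. Counting every H3K9ac peak within 2 kb whatever its name, an alternative chosen after seeing the data, 37 genes stood in both lists.

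H3K27ac stood in both lists at most of the genes. A peak was found near the gene's H3K9ac in both lists for 43 of 51 genes (84.3%), against 65.4% of all genes. DDX10 and DDX11 had it in the stromal list only (5.2% of all genes), and DDX47, DHX16 and DHX37 in the astromal list only (7.64%). DDX26B-AS1, DDX51 and DDX60 had it in neither (21.8%). The astromal peak of DDX47 lay 9609 bp upstream of the TSS, beside an upstream stromal H3K9ac peak, and no H3K27ac peak was found at its promoter in either condition.

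**Figure D2:**
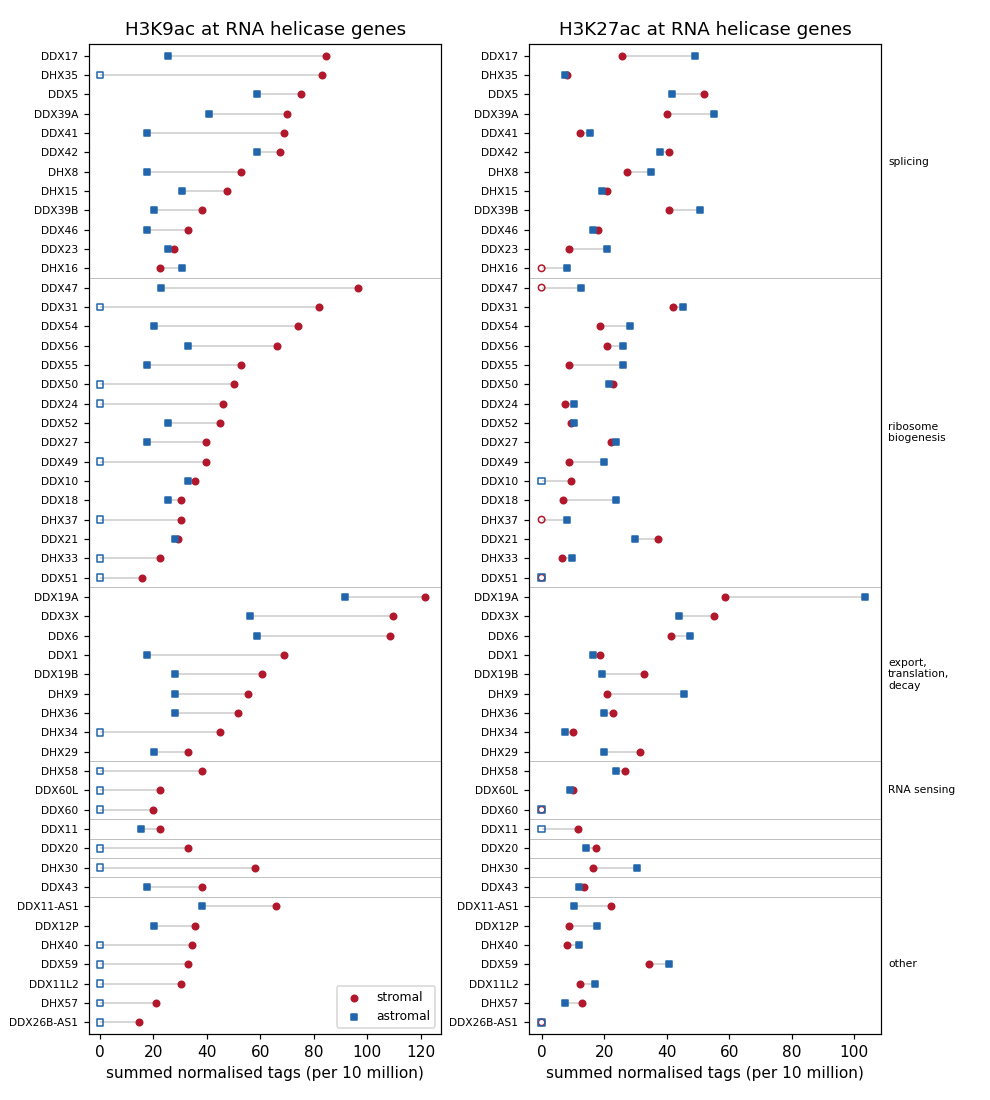
Summed normalised tags (tags per 10000000 of the library) of H3K9ac (left) and H3K27ac (right) at each helicase gene, by role, for stromal (red circles) and astromal (blue squares) cultures; open symbols at 0 mean no peak in that list. H3K9ac is farther right in the stromal library for 31 of the 32 genes in both lists, while the H3K27ac symbols change sides.

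The level of a gene was the sum of the authors' normalised tags over its peaks, and the ratio of 2 levels was read on the log2 scale less the median of all genes with both. Calls of higher or lower needed a centred ratio of 2-fold or more together with an exact 95% interval, for counting error only, that left out the median. For H3K9ac the stromal level exceeded the astromal level in 31 of 32 helicase genes, with a median log2 ratio of 0.88 before centring. Over all 5706 genes in both lists that median was 0.99, so the helicase genes had a median of -0.10 once centred. DDX47 was called higher and DHX16 lower, 1 of 32 each, beside 5.96% of all genes called higher and 3.56% called lower. By the highest peak alone none was called higher and only DDX10 lower, beside 0.21% and 0.613% of all genes. Without centring 8 of 32 were called higher and none lower, against 44.2% of all genes called higher.

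Among the splicing helicases, 11 of the 12 named had H3K9ac in both lists. DHX35 had it in the stromal one alone. DDX5, a splicing factor and transcriptional coregulator, had the strongest single peak of the group. It lay in intron 1, at 62501803 to 62502013 on chromosome 17 in the stromal list (hg19), and held 75.3 normalised tags in stromal and 58.6 in astromal cells. That peak was number 78 of 20326 in the stromal list and number 8 of 7141 in the astromal one. Its centred ratio was -0.63 (-1.35 to 0.14), an interval that includes the median of all genes.

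DDX17, the close paralogue of DDX5, had 84.6 normalised H3K9ac tags in 3 stromal peaks and 25.5 in 1 astromal peak. The centred ratio was 0.74 (-0.23 to 1.87), not called, and 0.10 by the highest peak alone. H3K27ac at DDX17 had 25.6 in stromal and 49.1 in astromal cells. Its centred ratio was -0.77 (-1.36 to -0.20), short of a call, and -0.49 by the highest peak alone. DHX16, whose yeast counterpart drives the catalytic activation of the spliceosome, was the one helicase gene with less H3K9ac in stromal cells, at 22.5 against 30.6 normalised tags in astromal cells. The centred ratio was -1.43 (-2.58 to -0.23), from 17 stromal and 12 astromal tags in peaks that overlap in the first exon, the stromal one at 30640484 to 30640694 on chromosome 6. H3K27ac there was in the astromal list only, at 8.18 normalised tags, so both marks favoured the astromal library at this gene, on few tags.

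DDX41, a component of the active spliceosome, had 68.7 normalised H3K9ac tags in stromal and 17.8 in astromal cells (centred ratio 0.96, -0.19 to 2.34). DDX42, a partner of the splicing factor SF3B, had 67.4 in stromal and 58.6 in astromal cells (-0.78, -1.52 to -0.01). Neither was called. DHX35, a late spliceosome component, had 83.1 normalised tags in 3 stromal peaks, of which 48.8 lay within 1 kb of its TSS and the rest 87660 bp downstream. For H3K27ac, DDX23, the helicase that releases the first snRNP from the splice site, was called lower, at 8.73 normalised tags in stromal and 20.8 in astromal cells (-1.09, -2.10 to -0.13). The 12 genes had a median centred ratio of -0.21 in H3K9ac and -0.14 in H3K27ac, each over 11 genes. The remaining splicing genes had H3K9ac in both conditions without a call in that mark. DDX39A had 70.0 normalised H3K9ac tags in stromal and 40.8 in astromal cells (-0.21), and DHX8, which releases the spliced mRNA, 52.8 and 17.8 (0.58). DHX15, which takes the spliceosome apart, had 47.5 in stromal and 30.6 in astromal cells (-0.35), DDX46, which remodels the branch-site snRNP, 33.0 and 17.8 (-0.10), and DDX23 27.7 and 25.5 (-0.87). The stromal values were the higher ones in all 5.

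DHX38, the remaining splicing helicase of this kind, was not named, and the nearest gene TXNL4B carried 101.7 stromal and 66.2 astromal normalised H3K9ac tags.

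Of the 16 ribosome biogenesis helicases 9 had H3K9ac in both lists, and DDX24, DDX31, DDX49, DDX50, DDX51, DHX33 and DHX37 in the stromal list only. DDX47, which acts in the maturation of the small subunit RNA, was the gene called higher. It had 96.5 normalised tags in 4 stromal peaks and 22.9 in 1 astromal peak, a centred ratio of 1.09 (0.08 to 2.27). Only 1 of the stromal peaks lay at the promoter, at 12966407 to 12966617 on chromosome 12, with 41.0 normalised tags. The others lay 8880 bp upstream and 7029 and 26457 bp downstream, and within 1 kb of the TSS the ratio was -0.05, so the call rested on peaks away from the promoter.

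DDX31, in the same list, had 81.9 normalised stromal tags, of which 30.4 lay within 1 kb of its TSS and the others 99079 and 99918 bp upstream, in an intron of another gene. DDX50 had 50.2 normalised stromal tags, DDX24 46.2 and DDX49 39.6, all in the stromal list alone and all with H3K27ac in both. DDX54 had 74.0 in stromal and 20.4 in astromal cells (0.87, -0.20 to 2.15), and DDX56 66.1 and 33.1 (0.01, -0.89 to 1.01). These ratios were not called.

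The smaller promoters of this role showed a like spread. DDX52 had 44.9 normalised H3K9ac tags in stromal and 25.5 in astromal cells (-0.17), DDX27 39.6 and 17.8 (0.17), and DDX18 30.4 and 25.5 (-0.73). DDX10 had 35.6 in stromal and 33.1 in astromal cells (-0.88), but its astromal tags lay in 1 peak just inside the gene and its stromal tags in 2, of which the higher held 21.1, so that it was called lower by the highest peak (-1.32). DHX37 had 30.4 normalised stromal tags, DHX33 22.5 and DDX51 15.9. DDX51, with 12 tags, had one of the weakest H3K9ac peaks of all the helicase genes and no H3K27ac nearby.

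Of the 4 helicase genes called lower in stromal H3K27ac, 3 were of this role. DDX18, needed for the large subunit, had 6.98 normalised tags in stromal and 23.8 in astromal cells (centred ratio -1.60, -2.69 to -0.61). DDX55 had 8.73 in stromal and 26.0 in astromal cells (-1.41, -2.39 to -0.50). DDX49 had 8.73 in stromal and 20.1 in astromal cells (-1.03, -2.05 to -0.07). In each of these genes, and in DDX23, 1 stromal peak faced 2 astromal peaks, and by the highest peak alone none of the 43 genes was called higher or lower, beside 0.465% and 0.866% of all genes. Over all 43 helicase genes with H3K27ac in both lists 4 were called lower and 1 higher, beside 6.22% and 5.47% of all genes, and the median centred ratio was 0.01.

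DDX21, the major nucleolar helicase, had 29.1 normalised H3K9ac tags in stromal and 28.0 in astromal cells (centred ratio -0.93), not at the same place. The stromal peak was centred 412 bp upstream of the TSS and the astromal one 134 bp downstream. In DDX55 the order was turned round, with the stromal peak 199 bp downstream and the astromal one 439 bp upstream.

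Of the helicases of mRNA export, translation and decay 8 of 9 had H3K9ac in both lists, DHX34 of nonsense-mediated decay being in the stromal list only. All 9 had H3K27ac in both. DDX3X, a helicase of translation initiation, had 109.6 normalised H3K9ac tags in stromal and 56.0 in astromal cells (centred ratio -0.02, -0.71 to 0.73), and DDX6, which drives mRNA decapping and P-body assembly, 108.3 and 58.6 (-0.10, -0.78 to 0.63). Within 1 kb of the TSS all 108.3 normalised stromal tags of DDX6 remained, and 75.3 of those of DDX3X. The other 34.3 of DDX3X lay in peaks 56937 and 79727 bp upstream. Both promoters had peaks on either side of the TSS in both conditions. DDX19A, an mRNA export helicase of the nuclear pore, had the highest sum over all its peaks, 121.5 in stromal and 91.8 in astromal cells (-0.58, -1.15 to 0.02). Of these tags 68.7 stromal and all 91.8 astromal ones lay 33911 bp (stromal) and 33882 and 34274 bp (astromal) downstream, in an exon annotated as the 3′ UTR of ST3GAL2. At the DDX19A promoter itself the stromal list had 52.8 normalised tags under that name, and the astromal list had none. Peaks there named for the non-coding gene LOC100506083 stood in both lists, with 56.8 in stromal and 35.7 in astromal cells.

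H3K27ac differed among these genes without a call. It was higher in stromal cells at DDX19B, the paralogue of DDX19A, with 32.6 against 19.3 normalised tags in astromal cells (0.92, 0.22 to 1.65), and at DHX29, a helicase of scanning ribosomes, with 31.4 against 20.1 (0.81, 0.12 to 1.54). It was lower at DHX9, RNA helicase A, with 20.9 in stromal and 45.4 in astromal cells (-0.95, -1.58 to -0.33), and at DDX19A, with 58.8 against 103.4 (-0.65, -1.03 to -0.27). Within 1 kb of its TSS DDX19A had 21.6 normalised H3K27ac tags in stromal and 23.8 in astromal cells, and the other 37.2 and 79.6 lay in the peaks near ST3GAL2. DDX1, of the tRNA ligase complex, had the highest centred H3K9ac ratio of these 9 genes, 68.7 stromal against 17.8 astromal normalised tags (0.96, -0.19 to 2.34). DHX36, which resolves G-quadruplex structures, had 22.7 normalised H3K27ac tags in stromal and 20.1 in astromal cells (0.34), and DHX34 had 9.89 and 7.43 (0.58). The intervals of DDX19B, DHX29, DHX9 and DDX19A left out the median of all genes, but none of the ratios reached 2-fold. By the highest peak alone these H3K27ac ratios were 0.06 at DDX19B, 0.30 at DHX29, -0.23 at DHX9 and -0.30 at DDX19A.

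All 3 RNA-sensing helicases had H3K9ac in the stromal list only, as had 52.2% of all genes. DHX58, which regulates the sensing of viral RNA, had 38.3 normalised tags, DDX60L 22.5 and DDX60 19.8, on 29, 17 and 15 tags. H3K27ac stood in both lists at DHX58, with 26.7 in stromal and 23.8 in astromal cells, and at DDX60L, with 9.89 and 8.92, and in neither at DDX60. At the lower pair, whose promoters with the interferon response element are printed above, the stromal H3K9ac peaks lay below the median of 23 tags of the genes in the stromal list only. No promoter sequence was found for DHX58, so the element was not looked for there.

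Outside these roles, DHX30, a helicase of the mitochondrial ribosome, had 58.1 normalised stromal H3K9ac tags. DDX20, of the SMN complex that builds snRNPs, had 33.0, both genes being in the stromal list only. DDX43, a gene of the germ line and of tumours, was named only for a peak 5489 bp (stromal) and 5205 bp (astromal) upstream of its TSS. DHX40 had 34.3, DDX59 33.0, DDX11L2 30.4, DHX57 21.1 and DDX26B-AS1 14.5 normalised stromal H3K9ac tags, none of them with an astromal peak. Of these DDX59 had the most H3K27ac, with 34.3 normalised tags in stromal and 40.9 in astromal cells. DDX4, DDX25, DDX28 and DDX53 were not named. DDX11, a helicase of sister chromatid cohesion, had 22.5 stromal and 15.3 astromal normalised H3K9ac tags, but its near-copies DDX12P and DDX11L2 make the counts of all 3 uncertain. DDX11-AS1, called higher in H3K27ac with 22.1 stromal against 10.4 astromal normalised tags (1.25, 0.34 to 2.25), shares its stromal promoter peak with DDX11, and its other H3K27ac peak, 89352 bp upstream in the stromal list, held 10.5 normalised tags in stromal and 10.4 in astromal cells.

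**Figure D3:**
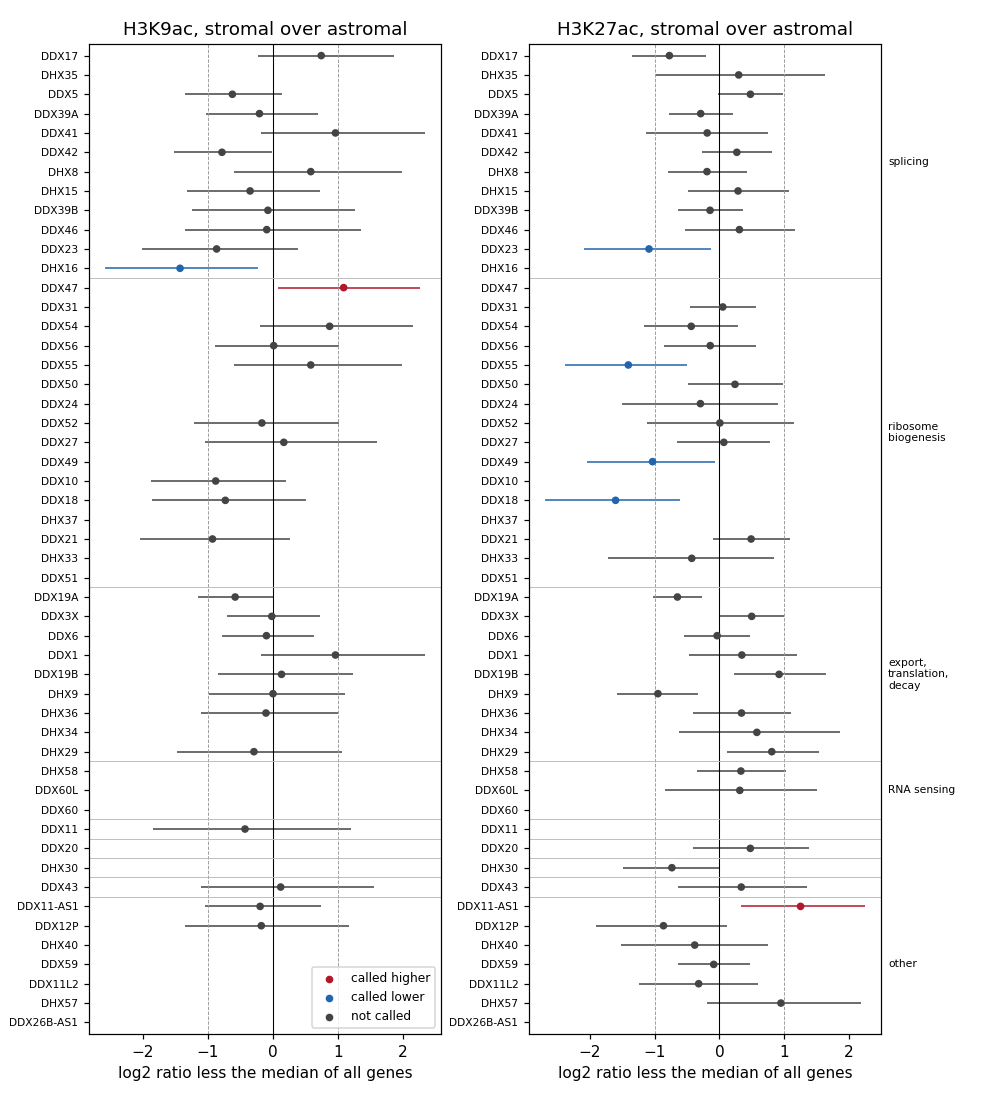
Log2 ratio of stromal over astromal level, less the median of all genes, for H3K9ac (left) and H3K27ac (right) at each helicase gene with a peak in both lists; lines are exact 95% intervals for counting error and dashed lines mark 2-fold. Most intervals cross 0; DDX47 and DDX11-AS1 are called higher and DHX16, DDX18, DDX23, DDX49 and DDX55 lower.

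The centred ratios of the marks lay on opposite sides of the median of all genes at 17 of 28 helicase genes with both ratios (60.7%), against 49.9% of all 4844 such genes. A side alone is not a call, and most intervals of these ratios included the median. Some ratios lay almost at it, such as those of H3K9ac at DHX9 (0.0002) and DDX56 (0.01). For H3K27ac the centred ratios of DDX3X (0.50, 0.02 to 0.99), DDX21 (0.49, -0.10 to 1.10) and DDX5 (0.48, -0.02 to 0.99) were among the 5 highest of the well-covered genes, and those of DHX30 (-0.73, -1.48 to -0.01) and DDX54 (-0.44, -1.16 to 0.28) among the 5 lowest, where well-covered means at least 20 tags in both libraries. By the highest peak those ratios were -0.06 at DDX3X, -0.03 at DDX21, 0.06 at DDX5, -0.05 at DHX30 and -0.36 at DDX54. In H3K9ac DDX3X (-0.02), DDX21 (-0.93) and DDX5 (-0.63) were below the median. Of the 28 helicase genes, 4 were above the median of all genes in both marks (DDX1, DDX19B, DDX27 and DDX43) and 7 below in both. H3K9ac was above and H3K27ac below at 7, among them DDX17, DDX41, DDX54 and DDX55, and the reverse held at 10, among them DDX3X, DDX5, DDX21 and DHX29. Within a condition the levels of the marks went weakly together: Spearman's rho over helicase genes was 0.50 in stromal (45 genes) and 0.40 in astromal cells (30 genes), and over all genes 0.45 and 0.41. By the highest peak, which leaves out the number of peaks, rho over helicase genes was 0.31 in stromal and 0.39 in astromal cells. Over all genes it was 0.43 and 0.39. These are descriptions.

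The balance of the marks, H3K9ac over H3K27ac less the median of all genes, set apart a few genes in each condition. In stromal cells 4 of 45 were called higher (12.9% of all genes): DHX35, with 83.1 normalised tags of H3K9ac and 8.14 of H3K27ac (2.01, 1.16 to 2.97), DDX24 (1.27), DDX55 (1.26) and DDX41 (1.16). Another 4 were called lower (13.4% of all genes): DDX21, with 29.1 and 37.3 (-1.70, -2.47 to -0.98), DDX39B (-1.43), DDX59 (-1.39) and DHX29 (-1.27). H3K9ac was summed by gene name, whereas H3K27ac peaks were counted whatever gene they lay nearest. Stromal H3K9ac peaks left out in this way held 35.7 normalised tags beside DDX39B (SNORD84), 35.7 beside DDX59 (LOC101929224) and 42.3 beside DHX29 (SKIV2L2). DDX21 had no such neighbour within 2 kb, and the part of naming in these calls was not tested. In astromal cells DHX16 (1.74, 0.44 to 3.07) and DDX11-AS1 (1.72) were called higher, 2 of 30 beside 6.55% of all genes. DDX39B (-1.47, -2.74 to -0.41) and DDX17 (-1.10) were called lower, 2 of 30 beside 9.19%.

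Other well-covered genes lay nearer the median. In stromal cells the ratio was 0.66 at DDX54, 0.55 at DDX1, 0.50 at DHX30 and 0.39 at DDX17, and -0.82 at DHX58. In astromal cells 5 genes had at least 20 tags of both marks, and their ratios ran over 0.47 at DDX42, 0.33 at DDX5, 0.19 at DDX3X and 0.14 at DDX6 to -0.33 at DDX19A. None of these was called.

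DDX39B, an mRNA export and splicing helicase, was the one gene called in both conditions. It had 38.3 normalised tags of H3K9ac against 40.7 of H3K27ac in stromal cells, and 20.4 against 50.5 in astromal cells. The nearby H3K9ac peaks named for SNORD84, with 35.7 in stromal and 20.4 in astromal cells, were not counted. Their part in the call was not tested. By the highest peak alone 3 genes were called higher in stromal cells (DDX24, DDX55 and DDX56, beside 4.57% of all genes) and none lower (5.53%). In astromal cells DHX16 was then called higher (1.24%) and none lower (2.87%). DDX39B, with 2 H3K27ac peaks in each condition, was therefore no longer called. Its paralogue DDX39A leaned the same way without a call (-0.53 stromal, -0.59 astromal).

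**Figure D4:**
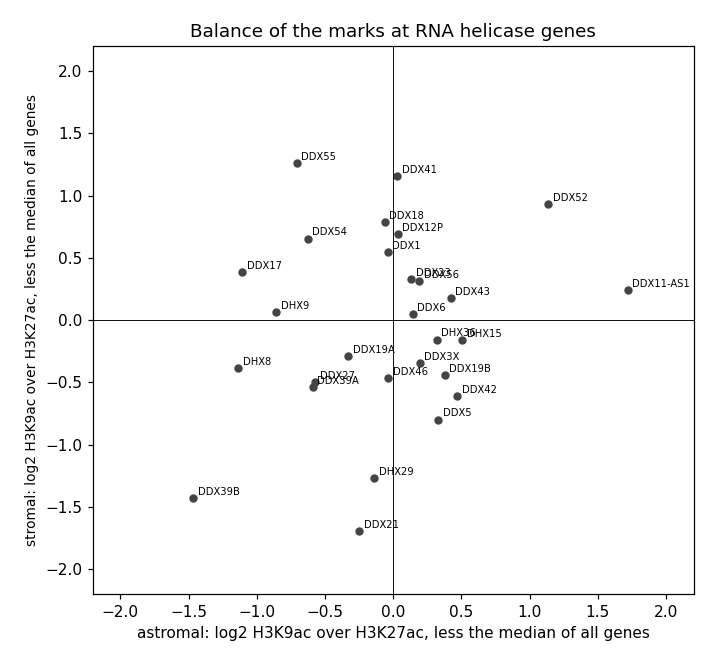
Log2 ratio of H3K9ac over H3K27ac, less the median of all genes, in stromal (y axis) against astromal cells (x axis) for the helicase genes with both marks in both lists. DDX39B lies low on both axes, DDX21 and DHX29 low on the stromal axis only, and DDX11-AS1 far right.

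The peaks kept close to the start of the genes. Of the helicase H3K9ac peaks 67 of 81 stromal (82.7%) and 34 of 38 astromal ones (89.5%) were centred within 1 kb of the TSS, against 76.5% and 86.1% of all peaks. Most lay just inside the gene, 43 stromal (53.09%) and 25 astromal ones (65.79%) between 50 and 1000 bp downstream. Of all peaks 48.63% in the stromal and 57.55% in the astromal list lay there. The median distance of these helicase peaks was 241 bp downstream in the stromal and 236 bp in the astromal list. The distance of the downstream peaks was thus alike while their number differed. For H3K27ac 66 of 75 stromal and 62 of 77 astromal peaks with a known distance lay within 1 kb, and those downstream had medians of 417 bp in stromal and 244 bp in astromal cells.

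**Figure D5:**
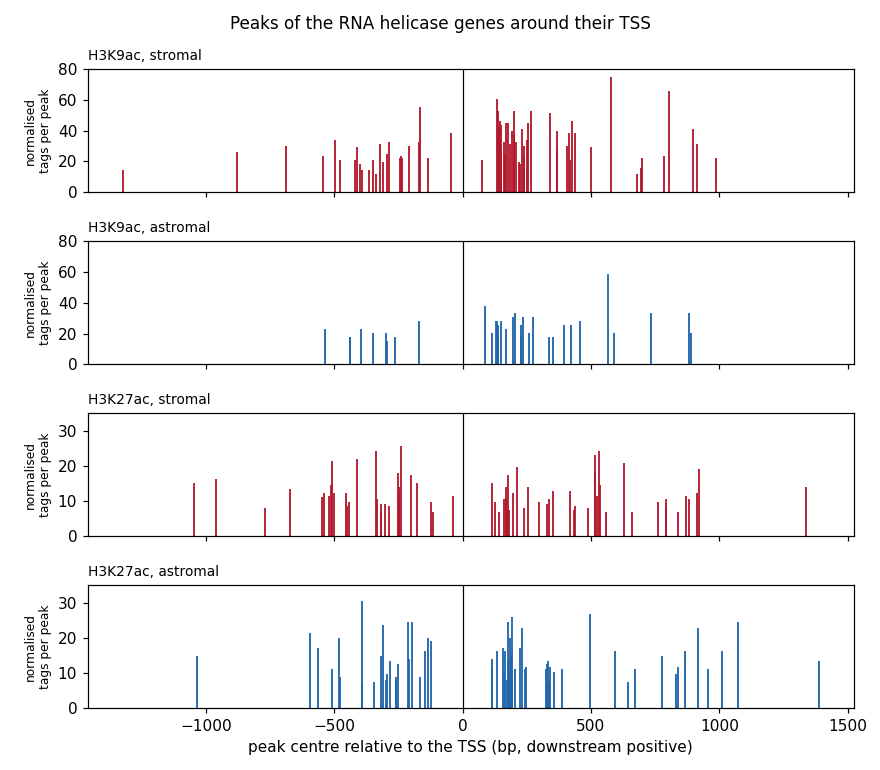
Normalised tags of each peak of the helicase genes (y axis) against the distance of its centre from the TSS in bp (x axis, downstream positive), for H3K9ac and H3K27ac in stromal (red) and astromal (blue) cultures, within 1.5 kb. Peaks leave a gap at the TSS itself and are most frequent just downstream.

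By position, 29 of 81 stromal H3K9ac peaks (35.8%, interval 25.4 to 47.2) overlapped an astromal one by at least 1 bp, against 26.6% of all stromal peaks. Seen from the astromal list these were 29 of 38 (76.3%, 59.8 to 88.6), against 75.8% of all. For H3K27ac 47 of 79 stromal (59.5%) and 47 of 82 astromal peaks (57.3%) overlapped, against 62.8% and 63.8% of all peaks chosen the same way.

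Other genes of the same pathways were read from lists of partners. Of 17 RNA helicases with other names 14 had H3K9ac in both lists, among them EIF4A2, with 151.9 normalised tags in stromal and 117.2 in astromal cells, and none was called in either mark between conditions. HELZ2, IFIH1 and YTHDC2 were in the stromal list only. Of 18 G-patch genes, whose proteins activate DEAH-box helicases, 11 had H3K9ac in both lists. None was called between conditions in either mark. Of 14 exon junction and export partners 8 had it in both. THOC1, at 72.7 normalised tags in stromal and 79.0 in astromal cells, was called lower in H3K9ac (-1.11, -1.77 to -0.42). That was 1 of 8, beside 3.56% of all genes. Of 10 genes of the RNA exosome, the nuclease that the helicases feed, 3 had it in both lists and 7 in the stromal one alone, beside 46.8% and 52.2% of all genes. EXOSC2 was called higher in both marks, with 124.2 normalised H3K9ac tags in stromal and 17.8 in astromal cells, the latter on 7 tags. EXOSC8 was called lower in H3K9ac, at 25.1 in stromal and 53.5 in astromal cells, and EXOSC9 lower in H3K27ac, at 9.89 and 23.0. In H3K9ac 1 of 3 exosome genes was called higher and 1 lower, beside 5.96% and 3.56% of all genes. In H3K27ac 1 of 6 was called higher and 1 lower, beside 5.47% and 6.22%.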

How the data were processed

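ChIP-seq of 4 libraries from MIA PaCa-2 spheroids, 1 per mark and condition, was read from peak lists; the 4 input libraries were not analysed on their own. Reads had passed through CASAVA 1.8.2, Bowtie and HOMER on hg19, per the submitters' processing notes. H3K27ac peaks were called against input at an FDR of 0.001, at least 4-fold over input and over the local 10 kb, with a p-value of at most 1.00e-04, per the file headers. For H3K9ac the calling thresholds were not given in the sources used here. The deposited signal is tags per peak, normalised by the authors to 10000000 tags. The deposited fold ratios over input served only as a filter, and the deposited tag counts, focus fraction, findPeaks score and p-values entered no level. In 874 astromal H3K27ac peaks the deposited count differed from the normalised signal, so tags were taken from the signal.

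The H3K9ac signal rises in steps of 1 tag, which gave tags and depth. Intervals are exact Clopper-Pearson intervals at 95% on tags and cover counting error only. Each gene's peaks were summed, so peaks of 1 gene are not replicates. Ratios, calls and medians were computed over all genes, with python 3.11.15, numpy 2.4.6, pandas 2.3.3 and scipy 1.17.1. Named genes are those called, the 5 highest and 5 lowest ratios among genes with at least 20 tags in both libraries, those missing from a list, the 10 with most tags in the stromal list only and the 10 with most stromal H3K9ac; further genes were named after their values were seen. The genes and lists were chosen with earlier results of these data known. Distances to a TSS and gene names of H3K9ac peaks are the authors' HOMER annotation, while H3K27ac distances were derived from it, without DDX49, DHX33 and DHX58, whose strand was not known. Alternatives covered peak sets, distances, thresholds and centring.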

Additional observations from a re-analysis of the deposited data

How the results depend on the processing

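No paired analysis was possible because each mark and condition was 1 library. With H3K9ac peaks of at least 10 tags only, 17 helicase genes were left in both lists and 34 in the stromal one alone, against 21% and 75.9% of all genes. With H3K27ac peaks at least 8-fold over input and the local region, 22 were left in both lists, 10 in the stromal one alone and 6 in the astromal one alone, against 30.7%, 11.8% and 13.5% of all genes. The H3K9ac count called higher, 1 in the report, was 0 by the highest peak, within 1 kb of a TSS, over overlapping peak pairs and with peaks of at least 10 tags, 8 without centring, and 2 (DDX31 and DDX47) with every peak within 2 kb whatever its name, an alternative chosen after seeing the data. Of all genes, 0.21% were called higher by the highest peak, 4.11% within 1 kb of a TSS and 0.364% over overlapping pairs. With peaks of at least 10 tags that share was 6.54%, and without centring 44.2%. The H3K9ac count called lower, also 1, was 0 without centring and over overlapping pairs, beside 0.123% and 0.62% of all genes. By the highest peak it was 1, DDX10 in place of DHX16, beside 0.613%. Within 1 kb of a TSS the centred ratio of DDX47 was -0.05, since its distant peaks were left out. The H3K27ac counts, 1 higher and 4 lower, were both 0 by the highest peak and over overlapping pairs. The shares of all genes were 0.465% and 0.866% by the highest peak, and 0.337% and 0.79% over overlapping pairs. At 8-fold the lower count was 1, DDX39A, beside 4.57% of all genes. For H3K9ac over H3K27ac by the highest peak, 0 were called lower in stromal cells, beside 5.53% of all genes. In astromal cells 1 was called higher and 0 lower, beside 1.24% and 2.87%. Other than in these constructions the cause was not tested. Without centring the median H3K9ac ratio was 0.88. Over genes and settings, single H3K9ac ratios kept their side of the calling rule 154 times, of which 36 changed sign without a call, gained a call 8 times and lost one 5 times, beside the turn of DDX47. H3K27ac ratios kept it 216 times (21 with a changed sign), gained a call 3 and lost one 10 times. Ratios of the marks kept it 126 times (14) in stromal and 85 times (8) in astromal cells. Tags per peak limit every ratio, since the median astromal H3K9ac peak of these genes rests on 9.5 tags, and no interval covers variation between cultures.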
